A study of Rattus norvegicus with 6 samples.

Results

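The genes described here are those of the intrinsic and receptor-driven routes to apoptosis: the Bcl2 family, the caspases, the proteins released from mitochondria, the inhibitors of apoptosis and the death receptor adaptors. They were taken by symbol from a fixed list of 36 genes, and 33 had a row in the deposited table of 35790 genes. The other 3, Mcl1, Bbc3 and Hrk, were not analysed here. Of the 33 genes, 25 promote death and 8 oppose it. They were measured by RNA sequencing in outer hair cells, the electromotile receptor cells that amplify vibration in the mammalian cochlea. They came from Sprague-Dawley rats of wild-type genotype, aged postnatal day 9. The 3 apical libraries held cells of the apical turn, which responds to low frequencies, and the 3 basal libraries cells of the basal turn, which responds to high frequencies. For a library, 30 cells were picked by eye after 10 min in collagenase IV at 1 mg/ml. Nothing in the labels says whether libraries of one turn are from different animals, so every p below measures the spread between libraries, which may be technical.

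Apoptosis through mitochondria turns on the Bcl2 family. BH3-only proteins sense damage and either activate the effectors Bax and Bak1 or block the relatives that hold these in check. The effectors then open the outer mitochondrial membrane, cytochrome c is released and assembles with Apaf1 into the apoptosome, and the apoptosome activates Casp9 and, through it, the executioner caspases. Death receptors reach the same executioners through Fadd and Casp8. Inhibitors of apoptosis bind caspases, and Diablo and Htra2 relieve that block. Outer hair cells of the basal turn are known to be lost before those of the apical turn after noise, ageing and ototoxic drugs, and the study relates the expression of both populations to their vulnerability.

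Total gene counts were 16511675 to 23140976 per library, and a count of 0 allows a level of up to 0.130 to 0.182 CPM (reads of a gene relative to the library total), that is 3 counts, which covers counting error only. Markers of outer hair cells took 0.617% to 2.02% of counts in the apical and 0.610% to 5.45% in the basal libraries, with 8 of 9 listed markers matched. Other hair cell genes took 1.95% to 2.99% in the apical libraries, and in basal replicates 1, 2 and 3 they took 1.71%, 0.979% and 0.350%. Schwann cell and glia markers, 14 of 14 matched, took 0.0415% to 0.0937% in the apical and 0.361%, 3.76% and 2.55% in the basal libraries, where none of them was at 0, while 6 were at 0 in apical replicate 2 and 5, among them Prx, in apical replicate 3. Macrophage and leukocyte markers, also 14 of 14, took 0.0164% to 0.0377% in the apical and 0.148%, 0.0263% and 0.209% in the basal libraries. Cd68 was at 0 in apical replicate 2 and in basal replicates 1 and 2. Red blood cell markers, 6 of 8 matched, took 0.0178% to 0.153% in the apical and 0.246%, 1.14% and 0.785% in the basal libraries, with Alas2 at 0 in all apical libraries and in basal replicate 1. Fibrocyte, mesenchyme and bone markers, 12 of 13 matched and none at 0, took 0.332% to 0.407% in the apical and 0.221%, 1.72% and 3.00% in the basal libraries. Neuron markers, 8 of 8 matched, took 0.00811% to 0.0175% in the apical and 0.0175% to 0.0685% in the basal libraries. The part of these other cells in the results below was not tested, and fewer cells of a type cannot be told apart from less RNA per cell.

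The promoters of 3 genes that the results turn on are shown first: Cycs, the gene of highest level among the 33, and Diablo and Bid, whose libraries did not overlap between the turns. No promoter was found for Htra2, whose libraries did not overlap either. Each promoter shown is the run of 250 bases before the annotated start, 5′ to 3′, from RefSeq on GRCr8. That of Cycs lies at chr4:80984768-80985017 on the minus strand, that of Diablo at chr12:38716418-38716667 on the plus strand and that of Bid at chr4:155808320-155808569 on the minus strand. Capitals mark matches, on either strand, to 4 motifs: GCATGCGC (the core bound by NRF1, a regulator of nuclear genes for mitochondrial proteins), TGACG (the cyclic AMP response half-site), GGGCGG (the GC box) and CCAAT (the CCAAT box). No match overlapped another in these 3 windows.
Cycs: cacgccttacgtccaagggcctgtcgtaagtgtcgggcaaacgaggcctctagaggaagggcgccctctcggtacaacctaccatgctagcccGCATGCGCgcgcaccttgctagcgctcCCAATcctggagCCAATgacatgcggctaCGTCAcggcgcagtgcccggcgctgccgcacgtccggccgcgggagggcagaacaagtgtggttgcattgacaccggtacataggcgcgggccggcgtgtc
Diablo: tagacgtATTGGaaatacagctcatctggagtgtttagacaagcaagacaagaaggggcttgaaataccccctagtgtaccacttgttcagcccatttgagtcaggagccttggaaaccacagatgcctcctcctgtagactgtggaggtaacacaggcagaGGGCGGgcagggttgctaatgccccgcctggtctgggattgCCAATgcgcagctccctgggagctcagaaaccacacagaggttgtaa
Bid: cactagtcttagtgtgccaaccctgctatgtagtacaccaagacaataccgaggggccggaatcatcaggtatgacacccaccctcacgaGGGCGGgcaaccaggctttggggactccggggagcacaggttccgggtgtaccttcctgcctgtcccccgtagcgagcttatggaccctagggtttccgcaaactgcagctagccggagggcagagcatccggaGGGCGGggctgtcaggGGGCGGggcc

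The Cycs window held 1 NRF1 core, 1 half-site and 2 CCAAT boxes, and 28 CG pairs. The Diablo window held 1 GC box and 2 CCAAT boxes with 4 CG pairs, and that of Bid 3 GC boxes with 13 CG pairs. Over all 33469 promoter windows of the same length, 2.2% held the NRF1 core, 18.2% the half-site, 30.5% the GC box and 34.0% the CCAAT box. A promoter was found for 25 of the 33 genes, in 28 windows, and of these 25 genes 17 held the GC box, 10 the CCAAT box, 6 the half-site and 4 the NRF1 core (Cycs, Apaf1, Aifm1 and Fadd). A match is a run of letters and not a measured site.

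Of the 33 genes, 13 had counts in all 6 libraries: Bax, Bak1, Bad, Bcl2l1, Casp2, Cycs, Diablo, Htra2, Aifm1, Endog, Birc2, Fadd and Ripk1. Apaf1 and Casp9, of the apoptosome, had them in 5 libraries. Levels are compared between genes as FPKM, which divides counts by gene length and library size. Cycs, which encodes cytochrome c, stood far above all others at 1007 FPKM over the 6 libraries, followed by Diablo at 122, Bax at 88.9, Bad at 85.2, Bak1 at 42.6 and Bcl2l1 at 33.4. Cycs was first in every library and Diablo second in all but basal replicate 2, where Bax came second. The rest of the 33 genes, led by Htra2, had a mean of at most 28.9 FPKM. The deposited FPKM was 1.18 (Bax), 1.66 (Bak1) and 1.09 (Bcl2l1) times the count divided by the listed length and library total. For Cycs, Diablo, Bad and Htra2 this factor was 1. By the listed lengths Bad would stand above Bax, and Bcl2l1 and Htra2 above Bak1, so this part of the order depends on the length used.

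At the other end, Fas, the receptor for Fas ligand, had no count in any library, and Pmaip1 (Noxa), a BH3-only gene, had a single count in basal replicate 3. Bcl2 itself had 3, 0 and 13 counts in the apical and 0, 0 and 70 in the basal libraries, so among the death-opposing relatives measured here Bcl2l1 (Bcl-xL) had the highest level in every library. Casp1, the inflammatory caspase, had 137 counts in basal replicate 3 and 0 in the other 5 libraries. Casp12, a caspase of the endoplasmic reticulum in rodents, had 240 counts in apical replicate 1, 115 in basal replicate 3 and 0 elsewhere. The map of FPKM shows these rows as mostly empty beside the filled rows of the core genes.

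**Figure D1:**
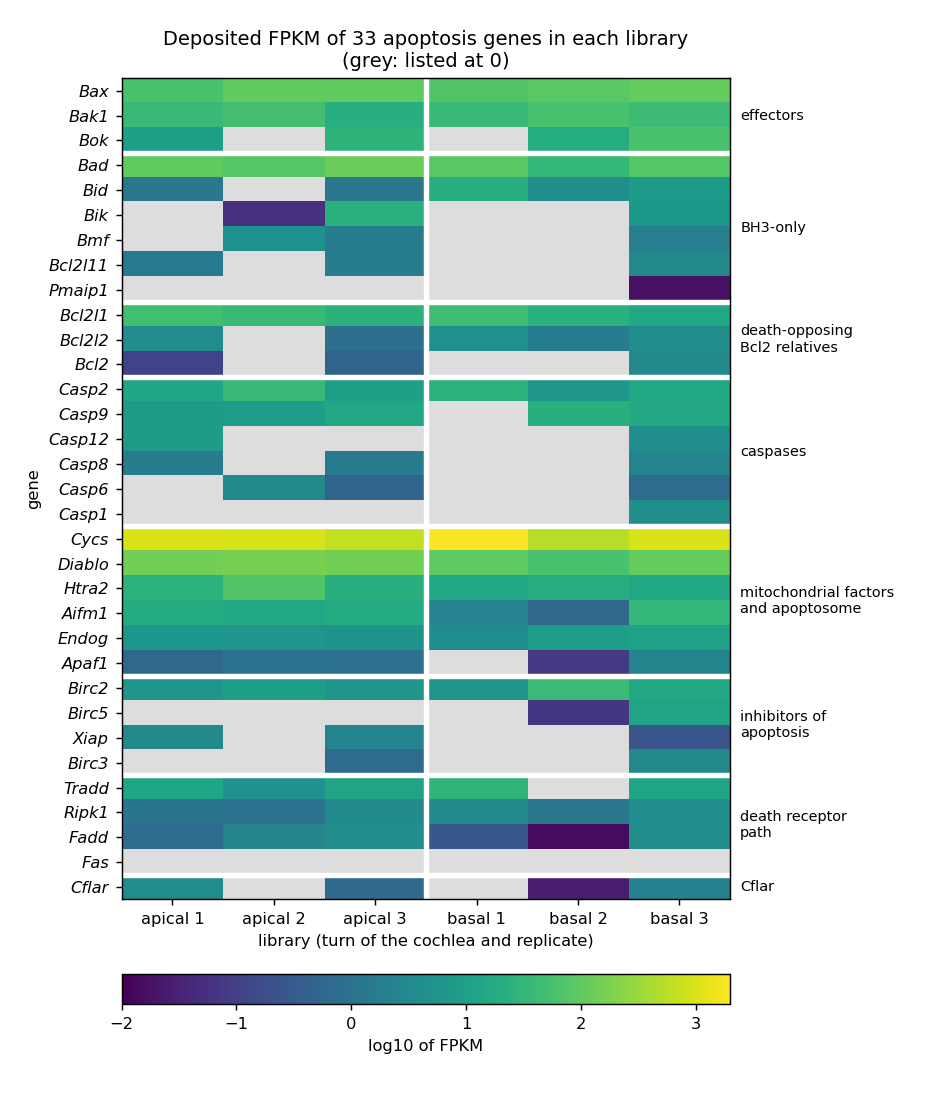
Deposited FPKM of the 33 genes (rows, by class) in the 6 libraries (columns), coloured on a log10 scale, with grey for genes listed at 0. Cycs is the brightest row in every column, Fas is grey throughout, and basal replicate 3 has colour in 32 of 33 rows against 16 in basal replicate 1.

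The number of the 33 genes seen varied between the libraries of each turn. Apical replicates 1, 2 and 3 had counts for 25, 19 and 28 genes, while basal replicates 1, 2 and 3 had them for 16, 20 and 32. Basal replicate 3 was also the library of highest level for 14 of the 32 genes with a count, among them Bax, Bok, Bcl2, Bcl2l11, Casp8, Apaf1, Birc3, Birc5 and Aifm1. Among the 25 genes tested below this was 9 genes, or 36.0%, while basal replicate 3 was highest for 19.4% of all 13507 genes tested. Among these 25 genes, those at 0 made up 8%, 28.0% and 0% of the apical and 36.0%, 24.0% and 0% of the basal libraries. Over all genes tested the shares were 1.86%, 13.1% and 2.97% in the apical and 19.5%, 23.1% and 4.86% in the basal libraries. Both sets had their lowest shares in apical replicates 1 and 3 and basal replicate 3.

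**Figure D2:**
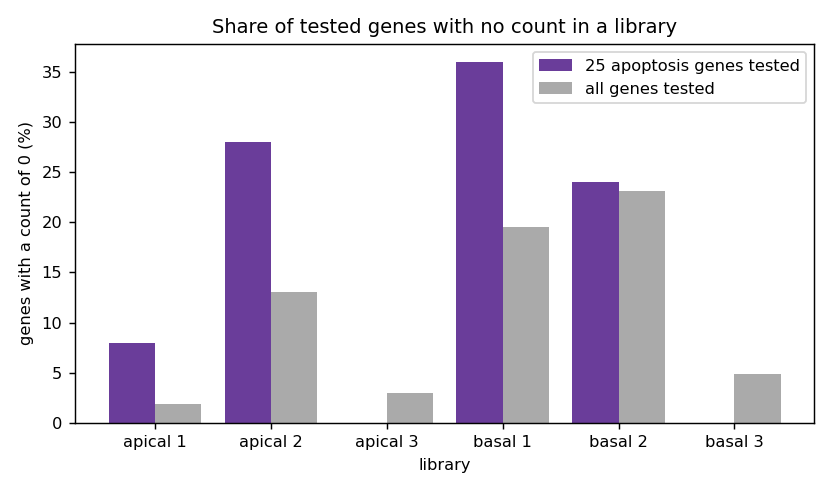
Share of genes with a count of 0 (y axis, percent) in each library (x axis), for the 25 apoptosis genes tested (purple) and all 13507 genes tested (grey). The purple bars reach 36.0% in basal replicate 1 and 28.0% in apical replicate 2 and are at 0 in apical and basal replicates 3.

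The comparison of the turns asks which of these genes differ between basal and apical outer hair cells. With edgeR's quasi-likelihood test and p-values adjusted by Benjamini-Hochberg, none of the 25 genes tested passed an adjusted p of 0.05, where 0% of all 13507 genes did. At an unadjusted p under 0.05 the count was 0 of 25, against 6.0% of all genes. DESeq2 called none of the 25, 4 of which had no adjusted p, against 2.69% of all 13507 genes. Of those, 749 had no adjusted p. The libraries of the turns did not overlap for 3 of the 25 genes, or 12%, against 15.8% of all genes: Bid lay higher in the basal libraries, and Diablo and Htra2 lay higher in the apical ones. Log2 fold changes of basal against apical libraries were above 0 for 12 genes and below 0 for 13, with a median of -0.05 (-0.02 over all genes). For the genes that promote death 10 of 20 were above 0, and for those that oppose it 2 of 5. The other 8 genes were too low in too few libraries to be tested: Bcl2, Bik, Pmaip1, Casp1, Casp12, Birc3, Birc5 and Fas. Every adjusted p by edgeR was 1.00 to 2 decimals. In the authors' deposited table, which gives an adjusted p for 32 of the 33 genes, the lowest was 0.714. Of all genes there, 107 of the 20038 with an adjusted p were under 0.05. Bid was the only one of the 32 with an unadjusted p under 0.05, and the share of all genes at that threshold was not taken.

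**Figure D3:**
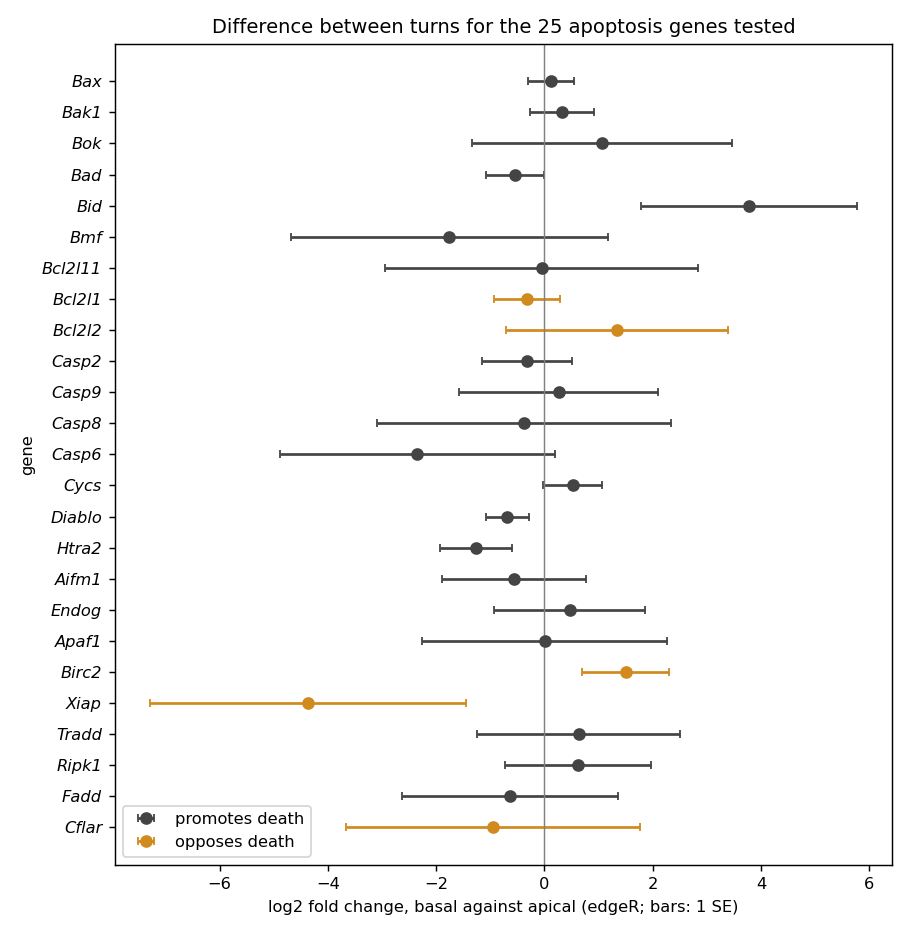
Log2 fold change of basal against apical libraries (x axis) for the 25 genes tested (y axis, by class), with bars of 1 SE from edgeR's quasi-likelihood test. Bid lies farthest to the right at 3.78 and Xiap farthest to the left at -4.37, both with an SE of at least 1.99, while Bax, Diablo and Bcl2l1 have SE of 0.39 to 0.61.

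The effectors form the pores of the outer mitochondrial membrane. Bax (ENSRNOG00000020876, chromosome 1, 101451802 to 101457207 on the unnamed build of the table) had 1419, 1874 and 2365 counts in the apical and 1358, 1461 and 2307 in the basal libraries. Its groups overlapped almost fully, at 87.1 ± 22.4 FPKM apical and 90.6 ± 19.97 FPKM basal (SD, n = 3 each), with a log2 fold change of 0.12 (SE 0.43). Bak1, which shares the role of Bax, had 1008, 1203 and 600 apical and 812, 1137 and 998 basal counts. In CPM it was highest in basal replicate 2 and lowest in apical replicate 3, the groups overlapped, and its log2 fold change was 0.32 (SE 0.59). Bok, a relative of less settled function, had 210, 0 and 634 apical and 0, 307 and 1153 basal counts. It was absent from 1 library of each turn, and its log2 fold change of 1.07 had an SE of 2.40.

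Among the BH3-only genes, which start the mitochondrial route, Bad, a sensor of survival signalling, was the most abundant. It had 2287, 1499 and 3035 apical and 1589, 550 and 1638 basal counts. Its level was 104 ± 25.5 FPKM apical and 66.6 ± 29.0 FPKM basal (SD, n = 3 each). The groups overlapped, with a log2 fold change of -0.54 (SE 0.53). Bad made up most of the summed BH3-only FPKM in every library, where the sum was 102.8, 85.3 and 159 apical and 106.4, 37.5 and 100.1 basal.

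Bid, which Casp8 cleaves to carry a receptor signal to mitochondria, was the BH3-only gene whose turns lay apart. It had 59, 0 and 59 counts in the apical libraries against 752, 139 and 312 in the basal ones, in the order of replicates 1, 2 and 3. Every basal library was above every apical one, and the levels were 0.859 ± 0.744 FPKM and 10.8 ± 8.54 FPKM (SD, n = 3 each). The log2 fold change was 3.78 (SE 1.99), and it did not pass by edgeR (adjusted p = 1.00) or by DESeq2 (adjusted p = 0.267). Both adjusted p stand over all genes; the unadjusted p was 0.0951 by edgeR and 0.0161 by DESeq2. Basal replicate 1, with the most Bid, held macrophage and leukocyte markers at 0.148% of counts, basal replicate 2 at 0.0263% and basal replicate 3 at 0.209%. Of the 14 macrophage and leukocyte markers, 1, 6 and 2 were at 0 in apical replicates 1, 2 and 3. In basal replicate 1, 3 were at 0 (Cd68, Cd74 and Cx3cr1). In basal replicate 2, 4 were (Cd68, Ptprc, Cx3cr1 and Laptm5), and in basal replicate 3 none was. The macrophage shares overlapped between the turns, whereas the Schwann cell and red blood cell shares, like Bid, were higher in every basal library than in any apical one. Among the basal libraries both were lowest in replicate 1, where Bid and the outer hair cell share (5.45%) were highest. The part of any of these cells in the Bid counts was not tested.

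The remaining BH3-only genes were seen in 3 libraries or fewer. Bik had 0, 1 and 514 apical and 0, 0 and 132 basal counts, so nearly all of them came from apical and basal replicates 3. Bmf, released from the cytoskeleton on loss of attachment, was seen in apical replicates 2 and 3 and basal replicate 3 at 80 to 185 counts. Bcl2l11 (Bim), a direct activator of the effectors, was at 105, 0 and 119 apical and 0, 0 and 187 basal counts.

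The relatives that oppose death were led by Bcl2l1, with 2492, 1570 and 1305 apical and 1887, 858 and 633 basal counts. The groups overlapped, at 38.3 ± 12.1 FPKM apical and 28.4 ± 16.8 FPKM basal (SD, n = 3 each), and the log2 fold change was -0.32 (SE 0.61). Bcl2l2 (Bcl-w) had 284, 0 and 72 apical and 295, 103 and 297 basal counts. It was present in all basal libraries and at 0 in 1 apical library, the groups overlapped, and its log2 fold change was 1.33 (SE 2.05).

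The balance of effectors to measured death-opposing relatives varied between libraries of a turn. The summed FPKM of Bax, Bak1 and Bok divided by that of Bcl2, Bcl2l1 and Bcl2l2 was 2.02, 3.99 and 5.55 for the apical libraries. It was 2.14, 6.46 and 9.88 for basal replicates 1, 2 and 3. The turns overlapped, with means of 3.86 ± 1.77 and 6.16 ± 3.88 (SD, n = 3 each). Basal replicates 2 and 3, with the highest ratios, also had the highest Schwann cell (3.76% and 2.55%), red blood cell (1.14% and 0.785%) and fibrocyte, mesenchyme and bone shares (1.72% and 3.00%). The last of these had the same order over the basal libraries as the ratio. The part of those cells was not tested. Mcl1 is not in this ratio.

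**Figure D4:**
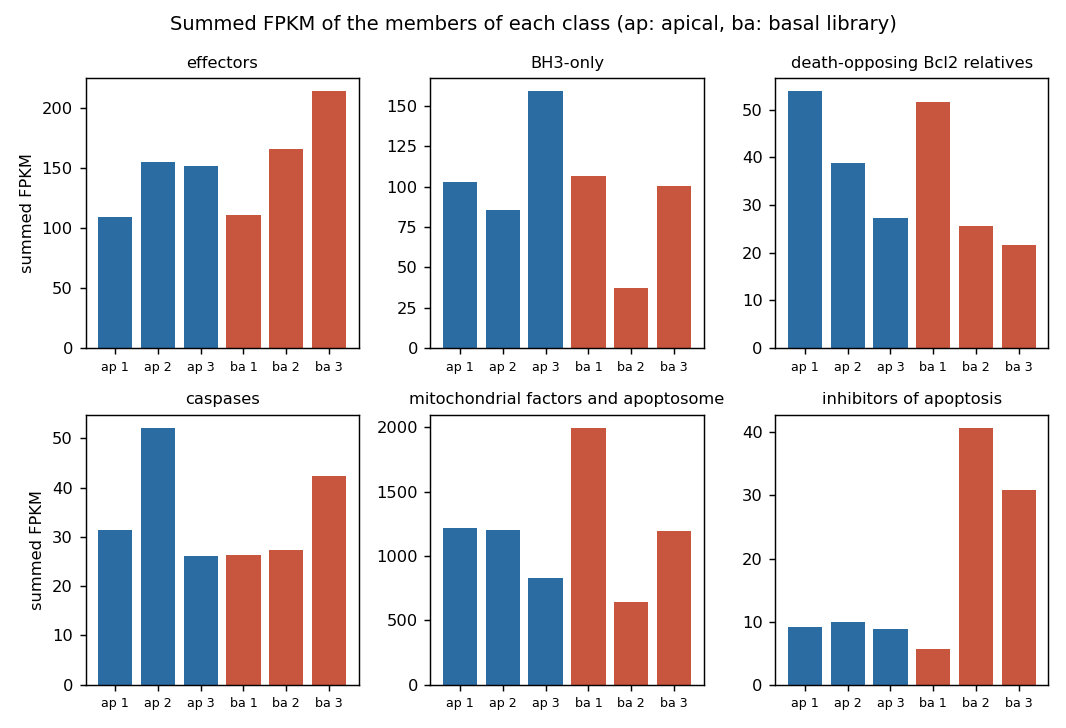
Summed FPKM (y axis, from 0) of the members of 6 classes in each apical (blue) and basal (red) library. The inhibitors of apoptosis stand at 8.90 to 10.0 in the apical libraries. Basal replicates 1, 2 and 3 stand at 5.69, 40.7 and 30.9, and no class has groups that lie apart.

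The mitochondrial factors held the highest levels of all. Cycs had 28037, 20941 and 17703 apical and 41541, 10892 and 24906 basal counts. Basal libraries were both the highest and the lowest, and the level was 866 ± 202 FPKM apical and 1149 ± 672 FPKM basal (SD, n = 3 each). The log2 fold change was 0.52 (SE 0.54), and the sign turned without basal replicate 1 (-0.11). Cytochrome c has processed pseudogenes in rodents, so its reads could be split between copies.

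Diablo (Smac; ENSRNOG00000029197, chromosome 12, 38490230 to 38503330) lifts the block of inhibitors of apoptosis on caspases. It had 4300, 4004 and 4408 counts in the apical and 2336, 1278 and 2969 in the basal libraries. All 3 apical libraries were above all 3 basal ones, with apical libraries close together at 153 ± 11.5 FPKM and basal ones at 90.2 ± 27.4 FPKM (SD, n = 3 each). The difference of -0.68 on the log2 scale (SE 0.39) did not pass by edgeR (adjusted p = 1.00). Htra2, a mitochondrial protease with the same action on inhibitors of apoptosis, had 1085, 2436 and 868 apical and 473, 570 and 537 basal counts. Apical libraries were again all higher in CPM, though by a small margin for apical replicate 3 (37.5 against 34.5 CPM in basal replicate 2). The log2 fold change of Htra2 was -1.26 (SE 0.67; edgeR adjusted p = 1.00), and it was -0.51 without apical replicate 2. The hair cell marker share was also higher in each apical library (1.95% to 2.99%) than in any basal one (0.350% to 1.71%). The Schwann cell and red blood cell shares were lower in each apical library than in any basal one. Within the basal turn the hair cell share was lowest in replicate 3, where Diablo was highest (146 CPM). Among basal libraries Htra2 was highest in replicate 2, which had the highest Schwann cell and red blood cell shares. The outer hair cell share overlapped between the turns (0.617% to 2.02% apical, 0.610% to 5.45% basal). The part of these cells was not tested.

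**Figure D5:**
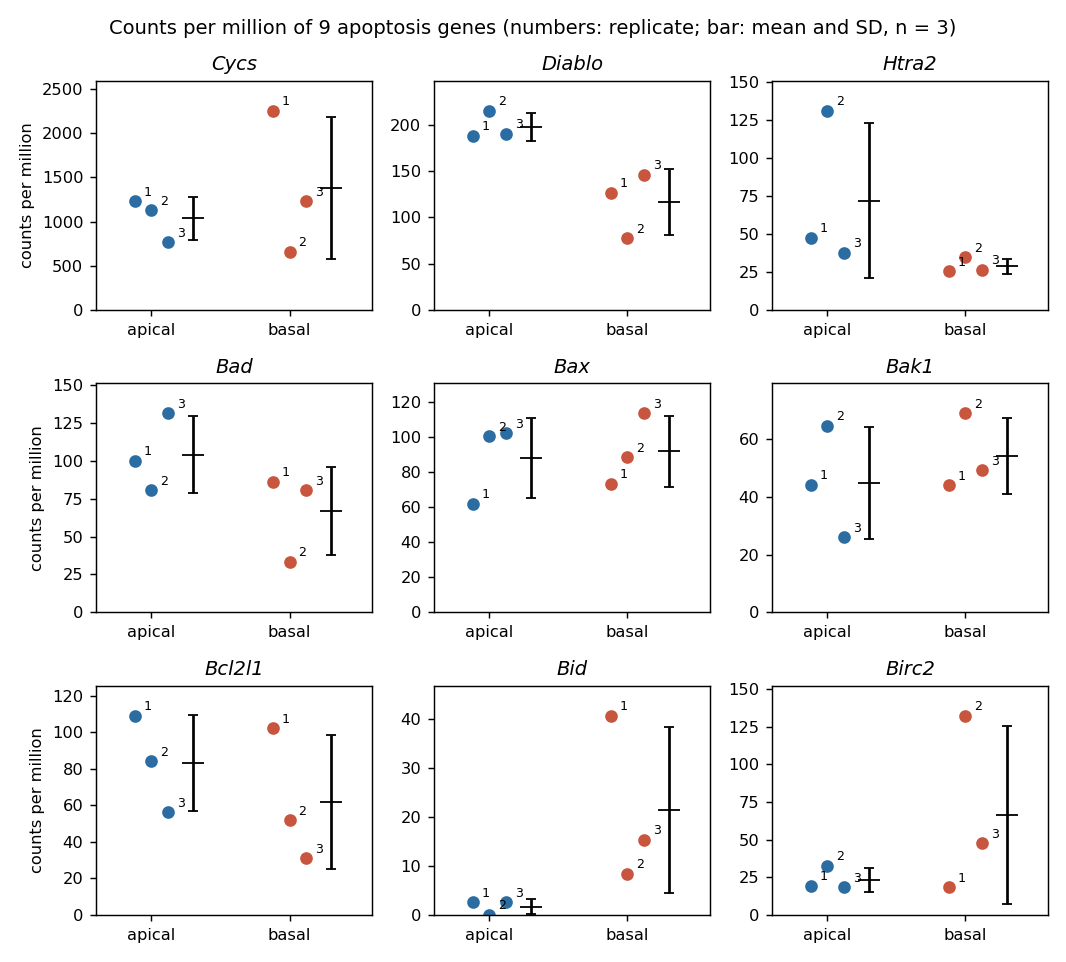
CPM (y axis, from 0) of 9 genes in each apical (blue) and basal (red) library, with the replicate number beside each point and the mean and SD (n = 3) in black. Diablo and Htra2 have all apical points above the basal ones, Bid has the reverse, and the other 6 genes overlap.

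Aifm1 and Endog act on nuclear DNA without caspases. Aifm1 had 874, 583 and 883 counts in the apical libraries, which lay close together, and 86, 20 and 1328 in the basal libraries, so basal replicates 1 and 2 lay below and basal replicate 3 above every apical library. Its log2 fold change was -0.56 (SE 1.32). With basal replicate 3 left out, DESeq2 called 1 of the 24 apoptosis genes then tested, Aifm1, against 1166 of all 14442 genes. By edgeR the lowest adjusted p over those 24 genes was 0.390. Endog, with 129 to 172 apical and 83 to 255 basal counts, overlapped between the turns. Apaf1, the scaffold of the apoptosome, had 82, 117 and 133 apical counts against 0, 8 and 304 basal ones. As for Aifm1, the apical libraries were alike and the basal ones spread to both sides of them.

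Caspases were low apart from Casp2 and Casp9. Casp2, an initiator linked to DNA damage, had 773, 1810 and 565 apical and 1190, 260 and 708 basal counts. Its groups overlapped and its log2 fold change was -0.32 (SE 0.83). Casp9, the initiator that the apoptosome activates, had 256, 239 and 466 apical and 0, 494 and 468 basal counts. It was absent from basal replicate 1 and at its highest CPM in basal replicate 2, and its log2 fold change of 0.26 had an SE of 1.83. Casp8, the initiator of the receptor route, was at 66 to 89 counts in apical replicates 1 and 3 and basal replicate 3 and at 0 in the other libraries. Casp6, an executioner, did not exceed 63 counts.

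Of the inhibitors of apoptosis, Birc2 (cIAP1), a ubiquitin ligase of receptor complexes, was the only one seen in all libraries. It had 440, 607 and 428 apical and 342, 2182 and 967 basal counts. Basal replicates 2 and 3 lay above every apical library and basal replicate 1 among them, so the groups overlapped. This gave 1.50 on the log2 scale (SE 0.80; edgeR adjusted p = 1.00). Without basal replicate 2 it was 0.58, and with basal replicates 2 and 3 left out it was -0.14. These were the libraries with the highest shares of Schwann cell (3.76% and 2.55%), red blood cell (1.14% and 0.785%) and fibrocyte, mesenchyme and bone markers (1.72% and 3.00%), and the part of those cells was not tested.

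Birc3 (cIAP2), which lies 14826 bases from Birc2 on chromosome 8, had 34 counts in apical replicate 3, 148 in basal replicate 3 and 0 in the other libraries. As close relatives, these genes could share reads. Xiap, the most direct inhibitor of caspases, had 166, 0 and 130 apical and 0, 0 and 12 basal counts. Only 1 basal library held any, and 1 apical library held none, so its fitted log2 fold change of -4.37 had an SE of 2.92.

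Birc5 (survivin), which also serves in mitosis, had 222 counts in basal replicate 3, 1 in basal replicate 2 and 0 in the other libraries. It was not tested. Of 5 genes of dividing cells, chosen after these values were seen, 4 had their highest count in basal replicate 3. Top2a had 1208 counts in basal replicate 3 and 0 elsewhere, and Cdk1 had 1028 there, 127 in apical replicate 1 and at most 20 elsewhere. Mki67 had 699 counts in basal replicate 3, 118 in apical replicate 2 and at most 37 elsewhere. Ccna2 had 836 counts in basal replicate 3 but also 504 in basal replicate 1, where Birc5 was at 0. Ccnb1 was highest in apical replicate 1 at 112 counts, against 48 in basal replicate 3. The part of dividing cells in the Birc5 counts was not tested.

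Of the receptor route, Tradd, the adaptor of tumour necrosis factor receptors, had 397, 119 and 382 apical and 709, 0 and 364 basal counts. Basal libraries were both the highest and the lowest, and the log2 fold change was 0.63 (SE 1.87). Ripk1, the kinase of the same complex, had 119, 87 and 359 apical and 258, 95 and 343 basal counts, which overlapped, with a log2 fold change of 0.62 (SE 1.35). Fadd, which brings Casp8 to the receptor, had 66, 192 and 364 apical and 21, 1 and 343 basal counts, with 2 of 3 basal libraries below the apical ones. Cflar, which blocks Casp8 at the receptor and lies 26890 bases from it on chromosome 9, had 186, 0 and 34 apical and 0, 1 and 99 basal counts, and its log2 fold change was -0.94 (SE 2.71).

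A second list of 85 symbols covered other genes of these pathways. It had 81 rows and 60 genes tested, of which 30 were above and 30 below 0, with a median log2 fold change of 0.02 (-0.02 over all genes). None passed by edgeR or was called by DESeq2, and 1 had an unadjusted p under 0.05 by edgeR. Libraries did not overlap for 7 of the 60 (11.7%, against 15.8% of all genes), 2 with the basal and 5 with the apical libraries on top. The 8 of smallest unadjusted p included Pdcd10, a vascular and stress-kinase adaptor, with 1745, 969 and 1822 apical and 3296, 1398 and 3478 basal counts (log2 fold change 1.16, SE 0.48; edgeR adjusted p = 0.785). Bnip3, a mitochondrial mitophagy receptor, had 5536, 4244 and 5879 apical and 2865, 2501 and 2055 basal counts (log2 fold change -0.75, SE 0.36). These genes had groups that lay apart, in opposite directions.

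Pycard, the adaptor that activates Casp1 in the inflammasome, had 71, 0 and 139 apical and 1244, 276 and 488 basal counts (log2 fold change 3.71, SE 1.82). Like Bid it was highest in basal replicate 1 and at 0 in apical replicate 2, and its groups lay apart. Casp1 itself had no count in basal replicates 1 and 2. Ddit3 (CHOP), a transcription factor of endoplasmic reticulum stress, had 359, 228 and 334 apical and 1694, 589 and 252 basal counts, so basal replicate 3 lay within the apical range (log2 fold change 1.85, SE 0.93). Of the other 4, Dapk1 had a log2 fold change of 1.42, Sept4 one of -1.52, Dap one of -0.80 and Dnm1l one of -0.93, all with overlapping groups.

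The receptors Tnfrsf1a and Tnfrsf21 had counts in all 6 libraries, at 363 to 854 and 172 to 2236 counts, and their groups overlapped. Other receptors of the list were seen less: Tnfrsf1b had no count and Tnfrsf10b had 14, all in apical replicate 3. Ngfr had 110 counts in apical replicate 3, 290 in basal replicate 3 and 0 elsewhere. Tnfrsf25 was at 0 in apical and basal replicates 2. The death ligands Tnf and Tnfsf10, like these receptors chosen for mention after their values were seen, had no count in any library, and Faslg had 15 counts, all in basal replicate 3. The necroptosis genes Ripk3 and Mlkl, chosen likewise, had counts in 1 library each, 31 in apical replicate 1 and 42 in apical replicate 3.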

How the data were processed

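RNA sequencing libraries of 30 outer hair cells each, 3 apical and 3 basal, were grouped by their titles. Bowtie2 2.2.3 and TopHat2 2.0.12 were used, per the submitters' processing notes; the build, the annotation, the counting tool and how the RNA was amplified were not given in the sources used here. Libraries were made with the NEBNext Ultra kit, per the labels' protocols, which does not record strand as named, so overlapping antisense genes cannot be told apart. Read counts, as whole numbers, and FPKM per gene and library were deposited, per the file headers. For 14 of the 33 genes the deposited FPKM was 1.02 to 1.72 times the count divided by the listed length and library total. The factor of a gene was the same in every library, so it does not affect comparisons of that gene between libraries. It does affect comparisons between genes, and it weights the genes in the class sums and in the ratio of effectors to death-opposing relatives. The authors' mean normalized counts (a signal per group) were not used. From the authors' own comparison, deposited p-values and log2 values were read only where named as theirs.

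The deposited counts went unchanged into edgeR 4.0.16 (R 4.3.3; filterByExpr, which kept 13507 genes; TMM; glmQLFit and glmQLFTest in the version's default form; no covariate; Benjamini-Hochberg adjustment over all genes tested). SE is the size of the log2 fold change over the root of F. CPM values in the text and plots are counts scaled by the library total alone, without TMM. The numbers of genes whose groups did not overlap, or that were highest in a library, were counted on CPM scaled with TMM. Alternatives used DESeq2 1.42.0, limma 3.58.1 (voom with sample weights, and log2(FPKM + 1) or log2(FPKM + 0.1) where 3 or more libraries reached an FPKM of 1), other scalings and filters, the replicate number as a block and each library left out. The fit without basal replicates 2 and 3 was added after seeing the data. The edgeR test was checked on simulated counts for 13507 genes, with 50 genes of high mean count changed at each size: 4, 27, 41 and 48 of 50 were recovered at sizes of 4, 16, 64 and 256 times, and 4 genes that had not been changed were called.

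The genes, the second list and the marker lists were chosen with earlier results of these data known. Counts in every library were to be given for genes with an unadjusted p under 0.05, genes whose groups do not overlap at a mean of at least 20 counts, the 2 of highest FPKM in each class and genes with under 10 counts in 1 library and over 500 in another. Of the second list the 8 of smallest p were to be named; genes named beyond these rules were chosen after their values were seen. Tables used Python 3.11.15, pandas 2.3.3 and numpy 2.4.6, and plots matplotlib 3.10.9. Single values of some listed genes are not reported here.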

Additional observations from a re-analysis of the deposited data

How the results depend on the processing

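No apoptosis gene that could be fitted passed an adjusted p of 0.05 in any of the 16 alternatives to the test. The 2 by limma on FPKM fitted 21 apoptosis genes against 25 in the main test, with no value for Cflar, Apaf1, Casp6 and Xiap. The class sums had 2 alternatives of their own. Over all genes the count was 0 in the main test, 363 by DESeq2, 28 by the bias-adjusted test, 8 with no count filter, 0 to 2 with 1 library left out (2 without basal replicate 1) and 289 without basal replicates 2 and 3. The last fit has 1 basal library, assumed to vary like the apical ones. The number of apoptosis genes with an unadjusted p under 0.05 was 0 in the main test, 1 (Bid) by DESeq2, by the bias-adjusted test and by limma on FPKM with either pseudocount, 0 to 1 with a library left out (Birc2 without basal replicate 1, Aifm1 without basal replicate 3), and 5 without basal replicates 2 and 3. Over all genes the share at an unadjusted p under 0.05 was 6.0% in the main test and was not taken for the alternatives. The counts of apoptosis genes in the alternatives therefore cannot be set against a rate over all genes. DESeq2 was run beside these settings with a library left out. Without basal replicate 3 it called Aifm1, 1 of 24 apoptosis genes, against 1166 of all 14442 genes. It called none of the apoptosis genes without any other single library. The median log2 fold change of the apoptosis genes was -0.33 to 0.17 with a library left out, -0.75 by limma-voom with sample weights (-0.50 over all genes) and -2.74 without basal replicates 2 and 3 (-1.21 over all genes). The cause of these shifts was not tested.

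Same-numbered libraries did not deviate together (correlations of deviations -0.04, 0.01 and 0.14), and the labels give no pairing, so the replicate block is an alternative only. With it 0 genes passed, the median was -0.66 (-0.38 over all genes), and Casp9 (-0.89), Cflar (0.24) and Tradd (-0.85) turned sign.

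Direction held in all 16 alternatives for Bad, Bak1, Bcl2l2, Bid, Diablo, Htra2 and Ripk1, and turned in at least 1 for the other 9 genes with a log2 fold change under the naming rule. Casp9 was -1.63 and -0.61 and Tradd -1.45 and -0.45 by limma on FPKM with pseudocounts of 0.1 and 1, and -1.15 and -2.94 by limma-voom. Without basal replicates 2 and 3 Casp2 was 0.51, Casp9 -11.2, Bcl2l1 0.50, Bax -0.061, Bok -10.9 and Birc2 -0.14; Casp9 and Bok have no count in the remaining basal library. With a library left out the ranges were -0.092 to 0.22 for Bax, -0.99 to 0.017 for Bcl2l1, -0.43 to 2.43 for Bok, -1.02 to 0.51 for Casp2, -0.31 to 0.86 for Casp9, -6.46 to 1.20 for Cflar, -0.11 to 0.89 for Cycs and -0.53 to 1.23 for Tradd.

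The log2 ratio of mean summed FPKM, basal over apical, moved without the member of highest FPKM from -0.51 to 0.31 for BH3-only genes (without Bad), from -0.28 to 1.43 for the death-opposing relatives (without Bcl2l1) and from 0.24 to -0.78 for the mitochondrial factors (without Cycs). For genes of few counts, depth and loss of transcripts in 30 cells limit what can be said.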
